A study of Mus musculus with 208 samples.

Results

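The 10 genes described here are Galnt4, C1galt1, Gcnt1, Gcnt3, B3gnt3, B3gnt7, B3gnt5, B3galt5, Fut2 and St6galnac1. These genes encode glycosyltransferases that build and decorate mucin-type O-glycans or, for B3gnt5, glycolipids. They were chosen by their measured values in the ileum of F1 mice with a germ-free father, as genes of glycan core, extension and fucosylation, so their ileum differences between those mice and the controls are given as a description, and the fitted values printed with them support nothing. All 10 were listed in the ileum table among 35799 genes. The same genes were then followed in liver, skin, 4-cell embryos and morulae, which the choice did not use, and there the differences were tested.

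The series held 208 samples in 21 groups of C57BL/6 mice and embryos, wild-type except for the embryos of 1 cross described below, and asked whether a parent that lived without microbes changes gene expression in offspring that have them. Conventional mice came from Charles River (CR) and germ-free mice (GF) from a university gnotobiotic core, so vendor and microbial state cannot be told apart in the fathers. In each cross the father is named first: CRxCR F1 mice had 2 conventional parents, GFxCR F1 mice a germ-free father and a conventional mother, and GFxGF F1 mice 2 germ-free parents, and all offspring were bred in a conventional facility. In 1 breeding scheme of the study, F2 mice came from F1 females mated to new conventional males (CRxCR and GFxCR lines) or new germ-free males (GFxGF line). Another scheme mated F1 littermates with each other, and the labels do not say which scheme gave the F2 samples. Mice were 8 weeks old unless stated otherwise, and both sexes were used. Embryos came from in vitro fertilisation and were sequenced singly. A further cross, RAGxWT, joined Rag2-/- sperm, from males without mature lymphocytes, to wild-type eggs, which gives embryos heterozygous for Rag2, and CRxGF embryos joined conventional sperm to germ-free eggs. The labels do not tie samples to litters or fathers, so the spread between samples may understate the spread between fathers. By the study's account the 4-cell embryos were gathered over several fertilisation runs, and the labels name no run for any embryo. Embryos of the same run therefore entered the tests as separate samples, and their p-values may be too small.

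Mucin-type O-glycosylation starts when a GalNAc transferase joins N-acetylgalactosamine to a serine or threonine of a protein. The first sugar is then built into a core, branched, lengthened by alternating galactose and N-acetylglucosamine, and ended with fucose, sialic acid or sulfate. In the intestine these chains make up most of the mass of the mucins that goblet cells secrete and of the membrane mucins of enterocytes. Fucose at the ends of the chains is a food source and a binding site for gut bacteria.

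The stretches before the annotated starts of 3 members are shown. B3gnt7 and B3galt5 had the widest ileum differences, in the contrast that chose the members. Gcnt1 was the 1 of 4 members tested in morulae that passed, beside 30.2% of all genes there. The stretches are RefSeq sequences of GRCm38.p6, each 250 bases up to the base before the start. They are written along the gene's strand, with matches to the searched motifs in capitals. B3gnt7 is from chr1:86302971-86303220 on the plus strand and its capitals mark the GC box, written GGGCGG or, on the opposite strand, its reverse complement. B3galt5 is from chr16:96235551-96235800 on the plus strand, the first of 3 annotated starts, and its capitals mark TTCNNNGAA, a motif of STAT factors. Gcnt1 is from chr19:17372845-17373094 on the minus strand, also the first of 3 starts, and its capitals mark the TATA box, TATAAA, on either strand.
B3gnt7: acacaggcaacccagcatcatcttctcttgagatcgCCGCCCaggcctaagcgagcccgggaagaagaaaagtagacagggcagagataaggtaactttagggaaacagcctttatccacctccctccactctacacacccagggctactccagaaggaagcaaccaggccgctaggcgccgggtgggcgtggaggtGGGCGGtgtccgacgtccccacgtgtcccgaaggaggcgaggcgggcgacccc
B3galt5: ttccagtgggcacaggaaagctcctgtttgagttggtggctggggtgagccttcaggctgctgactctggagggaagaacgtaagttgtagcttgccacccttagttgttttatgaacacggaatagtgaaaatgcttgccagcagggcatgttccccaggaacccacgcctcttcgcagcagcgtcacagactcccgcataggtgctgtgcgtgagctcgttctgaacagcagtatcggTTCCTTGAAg
Gcnt1: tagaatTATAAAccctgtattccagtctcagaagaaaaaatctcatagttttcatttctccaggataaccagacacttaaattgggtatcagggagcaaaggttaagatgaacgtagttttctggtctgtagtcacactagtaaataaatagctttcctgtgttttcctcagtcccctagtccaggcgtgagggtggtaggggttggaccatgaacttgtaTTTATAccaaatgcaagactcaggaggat

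The GC box matches of B3gnt7 lay 214 and 53 bases before its start, the STAT match of B3galt5 10 bases before, and the TATA box matches of Gcnt1 244 bases before on the same strand and 29 bases before on the opposite strand. The other annotated starts of B3galt5 and Gcnt1 held no match. The search covered both strands of windows running from 250 bases before to 50 after each start, for the TATA box, the GC box and the STAT motif as written above, for an HNF4 motif written CAAAGNNCA, for a CDX2 motif written TTTATNG, which can overlap a TATA box read on the other strand, and for a short HNF1 motif written GTTAAT. Of 32851 windows in the table, 13.6% held the TATA box, 35.7% the GC box, 8.3% the STAT motif, 6.36% the HNF4 motif, 10.9% the CDX2 motif and 7.1% the HNF1 motif. Windows were matched for 6 of the 10 members, 10 windows in all. C1galt1 held 6 GC boxes, B3gnt5 held 2, and B3gnt3 held 1 GC box and 1 HNF4 match. A match is a run of letters only, and the deposited values are per gene, so they do not say which start was used.

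Tissue values are CPM, the reads of a gene scaled to a common library size. The depth of a library, worked out from the steps of its low values, is what 1 CPM stands for: 2.59 to 14.25 reads in the ileum libraries, 3.41 to 7.26 reads in liver and 11.3 to 24.7 reads in skin. Differences are on the log2(value + 0.5) scale, GFxCR minus CRxCR, which understates changes of low genes. A gene entered the limma test once its value was 1 CPM (TPM in embryos) or more in a number of samples equal to the size of the smaller group. All 12 goblet cell markers searched were above 0 in ileum, all 7 hepatocyte markers in liver and all 7 keratinocyte markers in skin. All 9 early embryo markers were above 0 in embryos. Being above 0 does not tell tissues apart, since all 7 hepatocyte and all 7 keratinocyte markers were above 0 in ileum too. The sums differed between controls of ileum, liver and F1 skin (beside GFxCR mice), in that order. Goblet cell markers summed to 9477 to 12416, 102 to 124 and 293 to 419 CPM. Hepatocyte markers summed to 4803 to 17274, 84459 to 101850 and 159 to 485 CPM. That list shares Apoa1 with the absorptive enterocyte markers, and 4 of its 7 genes were high enough to test in ileum. Keratinocyte markers summed to 4.02 to 10.9, 1.07 to 3.52 and 1711 to 4334 CPM.

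In F1 ileum, the GFxCR mice had less B3gnt7 and B3galt5 mRNA than every control, by 4.33-fold and 4.38-fold in the means. Fut2, Gcnt3 and Galnt4 were lower on average with overlapping groups, C1galt1 and B3gnt3 differed little, and Gcnt1 and B3gnt5 were higher on average. St6galnac1 was at or near 0. In bulk tissue, fewer cells of a type and less RNA per cell cannot be told apart.

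Galnt4, which adds the first N-acetylgalactosamine, stood at 48.2, 32.03 and 68.7 CPM in GFxCR mice 1, 2 and 3, and at 48.1, 98.1, 77.1 and 73.8 CPM in CRxCR mice 1, 2, 3 and 5. Its log2 difference was -0.60 (SE 0.31), with the groups overlapping through the lowest control. Reads of Galnt4 may be shared with Poc1b, which overlaps it in the annotation.

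C1galt1, the T-synthase that makes core 1 by adding galactose to the first sugar, stood at 57.6, 62.1 and 78.9 CPM in GFxCR mice and at 71.6, 86.9, 53.4 and 89.5 CPM in controls. The lowest value belonged to a control, and the log2 difference was -0.17 (SE 0.23).

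Gcnt3, which adds the branch of core 2 and core 4 in mucin-secreting epithelia, stood at 40.2, 23.9 and 50.5 CPM in GFxCR mice and at 48.6, 83.5, 52.3 and 61.6 CPM in controls. All GFxCR values but the highest were below every control, and the log2 difference was -0.71 (SE 0.29). Gcnt1, the core 2 branching enzyme of many cell types, leukocytes among them, stood at 71.3, 95.7 and 97.2 CPM in GFxCR mice and at 20.1, 67.0, 33.3 and 98.8 CPM in controls. All controls except CRxCR mouse 5 were below the GFxCR mice, and the log2 difference was 0.92 (SE 0.47).

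B3gnt7, which adds N-acetylglucosamine in the growing of poly-N-acetyllactosamine chains, stood at 36.5, 50.6 and 58.6 CPM in GFxCR mice, about 109, 131 and 489 reads as the steps give them. In controls it stood at 289, 246, 167 and 137 CPM, about 2302, 3509, 643 and 533 reads. The highest GFxCR mouse was below the lowest control, with means of 48.6 ± 11.2 CPM (SD, n = 3) and 210.2 ± 70.0 CPM (SD, n = 4) and a log2 difference of -2.07 (SE 0.29). Gm28626 overlaps B3gnt7 in the annotation.

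B3galt5, which adds the galactose of type 1 chains, stood at 11.1, 41.3 and 16.4 CPM in GFxCR mice and at 106, 163, 72.9 and 60.4 CPM in controls. The groups did not overlap, with GFxCR mouse 2 nearest to the controls and CRxCR mouse 2 highest of all. The means were 22.9 ± 16.1 CPM (SD, n = 3) and 100.5 ± 45.9 CPM (SD, n = 4), a log2 difference of -2.22 (SE 0.46).

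B3gnt3, which extends core 1, stood at 151, 179 and 166 CPM in GFxCR mice and 237, 201, 147 and 180.3 CPM in controls. One control was lower than every GFxCR mouse, and the log2 difference was -0.19 (SE 0.20). B3gnt5, which makes lactotriaosylceramide and so acts on glycolipids rather than mucins, stood at 6.36, 0.772 and 18.3 CPM in GFxCR mice and at 0.754, 2.04, 2.86 and 23.2 CPM in controls. The highest and the lowest value both belonged to controls, and the log2 difference of 0.46 carried an SE of 1.08.

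Fut2, which adds the terminal fucose of the H antigen, stood at 20.4, 45.9 and 17.02 CPM in GFxCR mice and at 56.9, 92.2, 47.9 and 30.7 CPM in controls. GFxCR mouse 2 was above the lowest control, and the log2 difference was -1.05 (SE 0.42). The annotated Gm39008 overlaps Fut2. St6galnac1, which caps the first sugar with sialic acid, had 0.479 CPM in GFxCR mouse 3 and 0.667 CPM in CRxCR mouse 5 and was listed at 0 in the other 5 mice, too low to be tested.

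**Figure D1:**
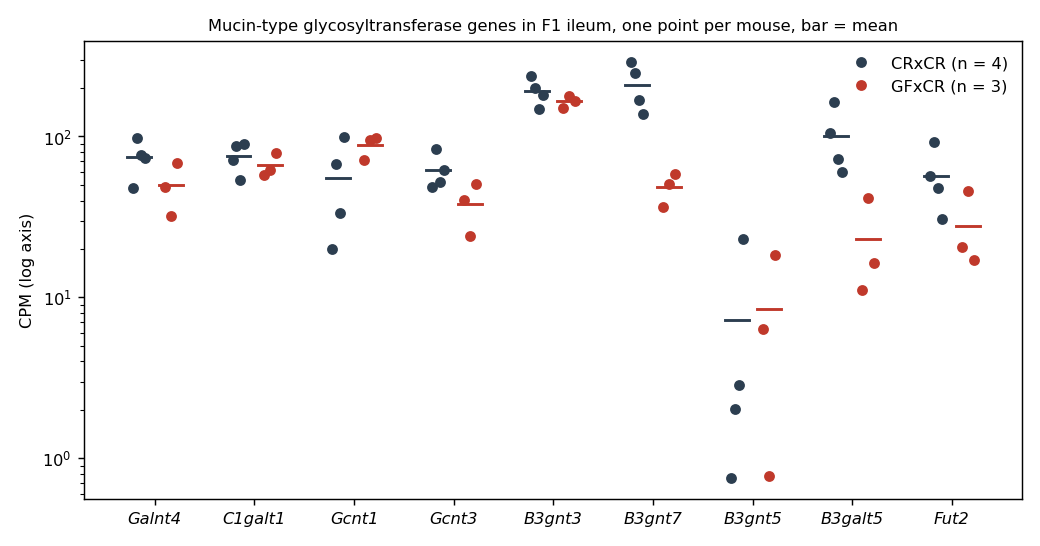
CPM of 9 members in F1 ileum on a log axis, one point per mouse with bars for the group means (St6galnac1, at 0 in 5 of 7 mice, is left out). B3gnt7 and B3galt5 are the members whose 3 GFxCR points all lie below the 4 CRxCR points.

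Of the 9 members that passed the filter, 7 had a negative and 2 a positive difference, with a median of -0.60 beside -0.08 over all 14802 genes tested. The groups did not overlap, with GFxCR lower, for 2 members, against 2.87% of all genes, and with GFxCR higher for 0 members, against 2.73%. By limma with Benjamini-Hochberg adjustment 0 of the 9 passed 0.05, as did 0% of all genes, and 4 (B3gnt7, B3galt5, Gcnt3 and Fut2) were under 0.05 before adjustment, against 4.5% (666) of all genes. Since this contrast chose the members, these counts support nothing about them. The replicate numbers were read as pairing the ileum samples, which no label states. With the number as a block 1 gene of the table, Gm48128, passed (limma, adjusted p = 0.031). That fit gave differences of -2.25 for B3gnt7, -2.43 for B3galt5, -1.31 for Fut2, 1.28 for Gcnt1 and 1.31 for B3gnt5. CRxCR mouse 5, which has no GFxCR partner, was left out of that fit. Leaving out 1 mouse at a time kept B3gnt7 between -2.25 and -1.88, B3galt5 between -2.75 and -1.82 and Fut2 between -1.48 and -0.77, whereas B3gnt5 ran from -0.43 (without GFxCR mouse 3) to 1.51 (without GFxCR mouse 2).

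The members did not form one pattern over the 7 mice. As a description over samples that share a library each, Pearson's r was 0.92 between B3gnt7 and B3galt5, 0.92 between B3galt5 and Fut2, and 0.94 between Gcnt3 and Galnt4, while it was -0.65 between B3gnt7 and Gcnt1 and -0.73 between B3gnt5 and Fut2. The mean of the members' standardised values was lowest in GFxCR mice 1 and 2 (-0.69 and -0.58) and highest in CRxCR mice 2 and 5 (0.73 and 0.64). GFxCR mouse 3 and CRxCR mouse 1 were alike in it, at 0.06 and 0.05. Among 11115 other genes of at least 5 CPM, those most like this mean were Oaz1-ps (r = 0.96), Bloc1s6 (0.95), Ptgfrn (0.95), Nus1 (0.94), Fzd7 (0.94), Epha1 (0.94), Pawr (0.94) and Tmed10 (0.93), over 7 mice.

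Markers of several cell types moved beside the members. The 10 B cell and germinal centre markers, all above 0, summed to 316, 20.5 and 815 CPM in GFxCR mice and to 7.79, 12.9, 15.9 and 1009 CPM in controls. The 3 mice with the highest B cell sum (GFxCR 1, GFxCR 3 and CRxCR 5) were the 3 with the most B3gnt5, and CRxCR 5 was also the control with the most Gcnt1. The B cell sum was added as a covariate after the data were seen. The difference was then -0.91 (SE 0.43) for B3gnt5, 0.56 (SE 0.45) for Gcnt1 and -0.61 (SE 0.30) for Fut2. It was -1.88 (SE 0.29) for B3gnt7 and -1.80 (SE 0.38) for B3galt5. The fit used the mice whose values chose the members, and the part of B cells in these differences was not tested.

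**Figure D2:**
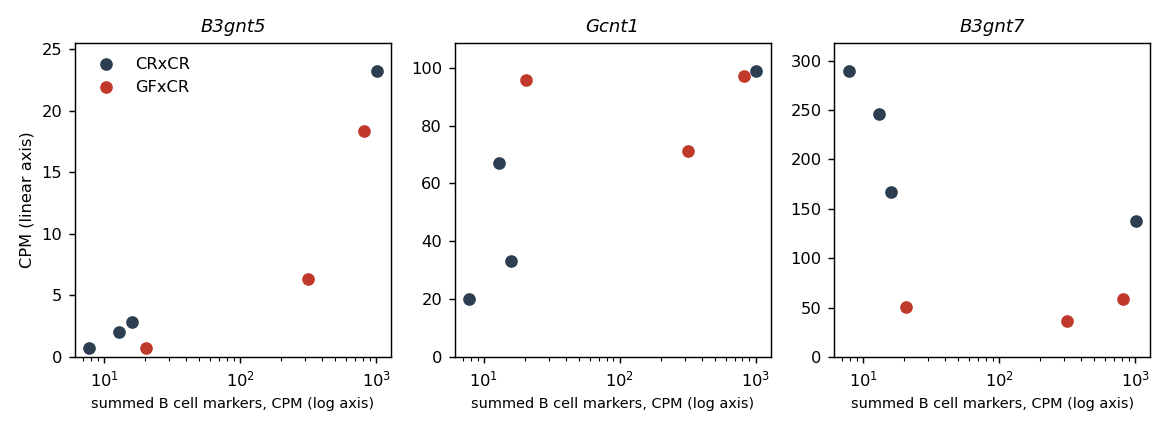
CPM of B3gnt5, Gcnt1 and B3gnt7 (linear axis) against the summed CPM of 10 B cell markers (log axis), one point per ileum mouse. B3gnt5 is highest in the 3 mice with the highest B cell sum. B3gnt7 is below every control in all 3 GFxCR mice, whose B cell sums run from 20.5 to 815 CPM. The part of B cells in either gene was not tested.

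The 12 goblet cell markers summed to 10466, 4000.3 and 11729 CPM in GFxCR mice and to 11960, 12416, 9477 and 11672 CPM in controls. GFxCR mouse 2, lowest in that sum, was also lowest in Galnt4 and Gcnt3 but not in B3gnt7, B3galt5 or Fut2. Of 11 goblet cell markers tested, 10 were lower on average and 1 higher, with a median log2 difference of -0.48. Of 10 Paneth cell markers tested, 9 were lower and 1 higher, with a median of -1.26. Absorptive enterocyte markers were lower in 4 and higher in 8 of 12 tested (median 0.23). Tuft cell markers were higher in 6 of 6 tested (median 0.55). Absorptive enterocyte markers summed to 17683 to 22232 CPM against 9727 to 34737 CPM, Paneth cell markers to 291 to 430.1 CPM against 338 to 2777 CPM, and tuft cell markers to 67.0 to 82.2 CPM against 44.9 to 58.0 CPM, the last without overlap. Smooth muscle markers were lower on average in 8 of 8, with a median of -0.83, and summed to 727 to 5206 CPM against 1925 to 7408 CPM. The early embryo and trophectoderm list, which holds the gut epithelial keratins Krt8 and Krt18, summed to 3488 to 4455 CPM against 4608 to 5687 CPM, lower without overlap. The part of these cell types in the members' differences was not tested.

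Of 109 other genes of the pathway, from GalNAc transferases to nucleotide sugar supply and the mucins themselves, 83 were tested in ileum. By limma 0 passed an adjusted p of 0.05, and 9 had an unadjusted p under 0.05, all lower in GFxCR mice (10.8%, beside 4.5% of all genes). Their count was 5 without GFxCR mouse 1, without GFxCR mouse 2 or without CRxCR mouse 2, 6 without CRxCR mouse 3, and up to 12 in the other leave-one-out fits. The list was set with earlier results of these data known.

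The largest of these groups was nucleotide sugar supply, with 5 of 20 tested and a median of -0.39. Gmds, the first enzyme of GDP-fucose synthesis from GDP-mannose, stood at 119, 129 and 202 CPM in GFxCR mice and at 191, 469, 441 and 272 CPM in controls, overlapping at 1 control (log2 difference -1.14, SE 0.33). Slc35a2, the transporter of UDP-galactose into the Golgi, stood at 22.1, 22 and 44.1 CPM against 45.5, 70.4, 69.0 and 46.9 CPM, without overlap (-1.02, SE 0.30). Cmas, which activates sialic acid, had a log2 difference of -0.89 (SE 0.33). None of these 3 passed after adjustment (adjusted p = 0.943 for each by limma).

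Among other groups, 1 gene each reached that unadjusted threshold in chain extension, terminal fucose, sulfation and the mucins. B4galt1, which adds the galactose of type 2 chains, stood at 157, 234 and 277 CPM in GFxCR mice and 352, 355, 347 and 302 CPM in controls (-0.64, SE 0.22). Fut4, which fucosylates N-acetyllactosamine, averaged 6.96 ± 3.36 against 14.6 ± 3.71 CPM, also without overlap (-1.10, SE 0.43). Chst4, a sulfotransferase of N-acetylglucosamine, averaged 12.7 ± 7.52 against 32.8 ± 11.9 CPM with overlap (-1.43, SE 0.44), and the membrane mucin Muc4 averaged 14.4 ± 4.11 against 33.9 ± 14.1 CPM without overlap (-1.17, SE 0.35).

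Muc2, the secreted gel-forming mucin, stood at 1052, 448 and 1068 CPM in GFxCR mice and 1009.9, 1175, 727 and 1068 CPM in controls, a log2 difference of -0.30 (SE 0.33) that turned to 0.11 without GFxCR mouse 2. C1galt1c1, the chaperone that C1galt1 needs, averaged 19.8 ± 5.70 against 29.1 ± 3.2 CPM (-0.57, SE 0.26, unadjusted p = 0.051). Of 14 tested GalNAc transferases and 12 tested sialyltransferases, 0 were under an unadjusted 0.05 by limma, with medians of -0.17 and -0.02.

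Across control mice, each member was compared with itself between tissues, in tables that were normalised separately. By the study's methods, skin and gland libraries were made with a total RNA kit, and ileum and liver libraries with mRNA kits. The glands were also cut from fixed tissue. Between ileum or liver and skin or glands, library kit and tissue therefore cannot be told apart. Among ileum, skin and liver, ileum held the highest mean of 9 members, all except St6galnac1. The sebaceous gland tables were left out of this order, and in them C1galt1 averaged 134 CPM in F0 CR and 197 CPM in F1 CR samples and Fut2 112 and 102 CPM, above their ileum means of 75.4 and 56.9 CPM. For B3gnt7, B3galt5, B3gnt3, Gcnt3, Fut2 and Galnt4 the lowest ileum control was above the highest skin control, and for C1galt1, Gcnt1 and B3gnt5 the ranges overlapped. B3gnt7 averaged 210.2 CPM in ileum, 0.456 CPM in F1 skin and 0.353 CPM in F2 skin, and was listed at 0 in liver. C1galt1 stood at 75.4 ± 16.6 CPM in ileum, 61.3 ± 2.79 CPM in F1 skin and 68.5 ± 22.9 CPM in F2 skin, and at 1.84 ± 1.12 CPM in liver. The F1 and F2 skin ranges overlapped for every member.

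**Figure D3:**
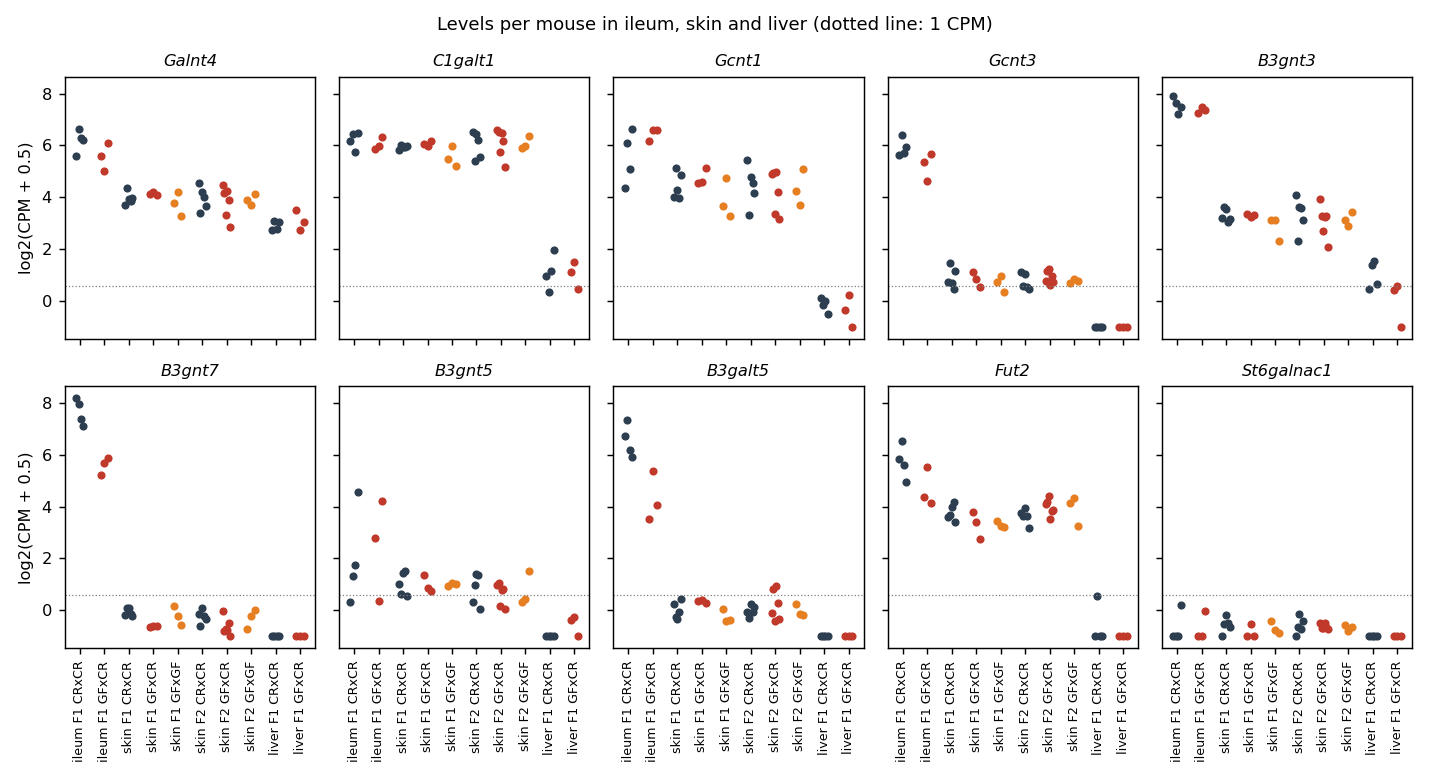
Level of each member on the log2(CPM + 0.5) scale, one point per mouse, in ileum, skin and liver (dark points CRxCR, red GFxCR, orange GFxGF; the dotted line marks 1 CPM). In control mice Galnt4, Gcnt3, B3gnt3, B3gnt7, B3galt5 and Fut2 stand higher in ileum than in skin without overlap, whereas the C1galt1 ranges overlap. Skin libraries were made with another kind of kit than those of ileum and liver.

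In liver, 3 members were high enough to test, and 0 passed an adjusted p of 0.05 by limma (beside 0.0343% of 11663 genes) or an unadjusted one (beside 15.8%). Galnt4 stood at 10.9, 6.09 and 7.84 CPM in GFxCR mice and at 6.16, 7.99, 6.32 and 7.70 CPM in controls, with a log2 difference of 0.19 (95% interval -0.42 to 0.80). C1galt1 stood at 1.65, 2.30 and 0.872 CPM against 1.47, 0.780, 1.71 and 3.42 CPM (-0.09, interval -1.14 to 0.95). For Galnt4, GFxCR mouse 1 was above and GFxCR mouse 2 just below every control, and for C1galt1 all GFxCR values lay within the control range.

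B3gnt3 in liver stood at 0.826, 0.987 and 0 CPM in GFxCR mice and at 0.879, 2.14, 2.39 and 1.07 CPM in controls. Only GFxCR mouse 2 was above the lowest control, and the log2 difference of -1.02 had an interval from -2.20 to 0.17 (limma, adjusted p = 0.380). Gcnt1, Fut2 and B3gnt5 stayed under 1 CPM in all 7 livers, and B3gnt7, B3galt5, Gcnt3 and St6galnac1 were listed at 0 in every one. The 7 hepatocyte markers summed to 105670 to 122960 CPM in GFxCR mice and 84459 to 101850 CPM in controls, without overlap, and their part in these values was not tested. Of the other pathway genes in liver, 7 were lower and 4 higher at an unadjusted p under 0.05 of 57 tested (19.3%, beside 15.8% of all genes), and 0 passed after adjustment by limma.

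In F1 skin of GFxCR mice, 7 members were tested, 4 with a negative and 3 with a positive difference. By limma 0 passed after adjustment (beside 0.0537% of 16761 genes) and 0 before (beside 7.08%). The differences ran from -0.46 for Fut2 to 0.30 for Gcnt1, and those of B3gnt3 and B3gnt5, at -0.01 and -0.04, turned to 0.08 and 0.03 after scaling by the median of ratios. Fut2 stood at 13.4, 10.0 and 6.30 CPM in GFxCR mice and at 11.6, 12.4, 15.5, 17.6 and 10.2 CPM in controls, overlapping (interval -1.01 to 0.09). Keratinocyte markers were lower on average in 7 of 7 there (median -0.63, sums of 1002 to 2274 CPM against 1711 to 4334 CPM), and their part in these values was not tested.

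B3gnt7 was under the filter in skin. In F1 it stood at 0.143, 0.149 and 0.163 CPM in GFxCR mice against 0.375, 0.560, 0.570, 0.415 and 0.361 CPM in controls. These values did not overlap, and the share of all skin genes without overlap was not worked out. These levels rest on few reads in each mouse. Fitted without the filter the log2 difference was -0.55 (SE 0.11), and it did not pass by limma after adjustment (unadjusted p = 0.00079, adjusted p = 0.531). In F2 skin the same fit gave -0.38 (SE 0.17, unadjusted p = 0.042, adjusted p = 1) between GFxCR and CRxCR lines, with overlapping values. For mice with 2 germ-free parents or from the GFxGF line it gave -0.12 (SE 0.17) and -0.04 (SE 0.20), both with overlapping values. B3galt5, also under the filter in skin, went the other way in that fit for GFxCR mice, with 0.34 (SE 0.20, adjusted p = 0.836) in F1 and 0.21 (SE 0.25, adjusted p = 1) in F2, and gave -0.33 (SE 0.22) and -0.05 (SE 0.18) for GFxGF mice.

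In F1 skin of GFxGF mice, compared with the same control mice, all 7 tested members had a negative difference, with a median of -0.40 beside -0.20 over all genes. By limma 0 passed after adjustment (beside 0.09% of 16668 genes) and 2 were under 0.05 before (beside 8.93%). Fut2 stood at 10.4, 8.94 and 8.76 CPM against 11.6, 12.5, 15.5, 17.7 and 10.2 CPM, overlapping at the lowest control (-0.48, interval -0.92 to -0.05, adjusted p = 0.557). C1galt1 stood at 44.3, 62.2 and 36.4 CPM against 56.7, 64.3, 61.8, 61.9 and 62.4 CPM, lower than every control in all GFxGF mice but mouse 2 (-0.40, interval -0.79 to -0.01, adjusted p = 0.557). Markers of skin cells had negative differences beside the members: 8 of 8 for smooth muscle (median -0.77), 7 of 7 for fibroblasts (-0.41) and 7 of 7 for keratinocytes (-0.40). Their sums overlapped between the groups, at 690.1 to 943 CPM against 864 to 1224 CPM for smooth muscle, 4754 to 8398 CPM against 6635 to 9981 CPM for fibroblasts and 1522 to 2076 CPM against 1710.1 to 4335 CPM for keratinocytes. The part of these cells in the members' differences was not tested.

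Scaling by the median of ratios moved the all-gene median of that table to 0.01, put C1galt1 at -0.17 and Fut2 at -0.27, and turned B3gnt5 from -0.03 to 0.14. With the level of Y-linked genes as a covariate, Galnt4 turned from -0.22 to 0.13. Of the other pathway genes, 10 of 81 were lower and 0 higher at an unadjusted p under 0.05 in GFxGF mice (12.3%, beside 8.93% of all genes). In GFxCR mice 2 of 81 were lower and 0 higher (2.47%, beside 7.08%). In either comparison 0 passed after adjustment by limma, and the difference between the comparisons was not tested.

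In F2 skin, 7 members were tested in each line, and 4 had a negative and 3 a positive difference in both. In the GFxCR line by limma 0 passed after adjustment (beside 0% of 16430 genes, 365 of which were under 0.05 before) and 0 before (beside 2.22%). In the GFxGF line 0 passed after (beside 0.0418%) and 0 before (beside 1.75%) by limma. The largest difference was Fut2 in the GFxCR line, with a lowest value of 10.9, a median of 15.3 and a highest of 20.9 CPM in 6 mice against 12.8, 11.99, 14.98, 12.1 and 8.62 CPM in controls. The groups overlapped, and the difference of 0.35 had an interval from -0.08 to 0.77. These F2 comparisons share their 5 control mice, as the F1 comparisons do.

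**Figure D4:**
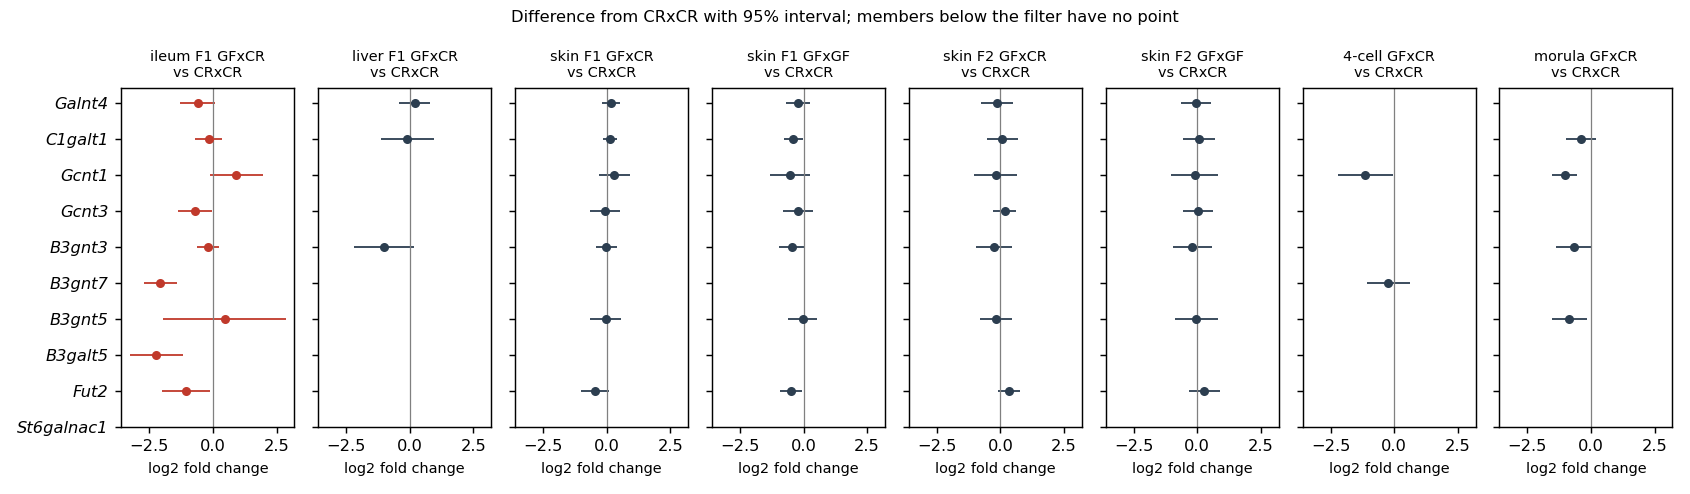
Log2 difference from CRxCR for each member in the 8 comparisons, with 95% intervals from limma; members under the filter have no point, and ileum, which chose the members, is in red. Outside ileum, the Gcnt1 interval in morulae (-1.52 to -0.55) lies farthest from 0.

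Embryo values are TPM, a unit like CPM that also takes transcript length into account. Of the members, Gcnt1 was the one expressed in most embryos: it was above 0 in 24 of 25 CRxCR 4-cell embryos and in all 43 CRxCR morulae. In 4-cell embryos 2 members were tested and by limma 0 passed after adjustment (beside 0.0102% of 9780 genes), with 1 under 0.05 before (beside 5.19%). Gcnt1 ran from 0 through a median of 2.85 to 16.9 TPM in 15 GFxCR embryos and from 0 through 6.62 to 21 TPM in 25 CRxCR embryos. The ranges overlapped, 10 of 15 GFxCR embryos having any Gcnt1, and the log2 difference was -1.14 (interval -2.22 to -0.06, adjusted p = 0.954). B3gnt7, the other tested member, differed by -0.22 (interval -1.06 to 0.62).

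In morulae 4 members were tested, all with a negative difference, and 1 passed after adjustment by limma, Gcnt1, beside 30.2% of 10893 genes. Before adjustment 2 were under 0.05, beside 41.5%. Gcnt1 ran from 0.62 through a median of 11.6 to 23.3 TPM in 17 GFxCR morulae and from 4.80 through 19.01 to 41.2 TPM in 43 CRxCR morulae. The lowest GFxCR morulae lay below all controls and the rest overlapped them, and Gcnt1 was lower by 1.77-fold in the means (log2 difference -1.03, SE 0.24, interval -1.52 to -0.55, adjusted p = 0.0014).

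Many genes were lower in these morulae: the median over all genes was -0.32, and it was -0.17 after scaling by the median of ratios, which put Gcnt1 at -0.86 (SE 0.23, adjusted p = 0.0055). GFxCR morulae also had fewer genes above 0, from 8591 through a median of 10842 to 12640, against 9922 through 12128 to 13001 in controls. With that number as a covariate, added after the data were seen, Gcnt1 stood at -0.67 (SE 0.25, adjusted p = 0.118) and did not pass.

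The embryos also fell into sets, which the labels do not name, by whether Marchf2 or Mtarc2 had the higher listed value. All 17 GFxCR morulae were in the first set, with 21 of the controls, and 22 controls were in the second. Within the first set, where controls ran from 7.57 through 20.9 to 32.8 TPM, Gcnt1 differed by -1.22 (SE 0.29, adjusted p = 0.0087). In the 4-cell embryos the first set held all 15 GFxCR embryos and 19 of 25 controls, and Gcnt1 differed by -1.03 (SE 0.60) there.

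**Figure D5:**
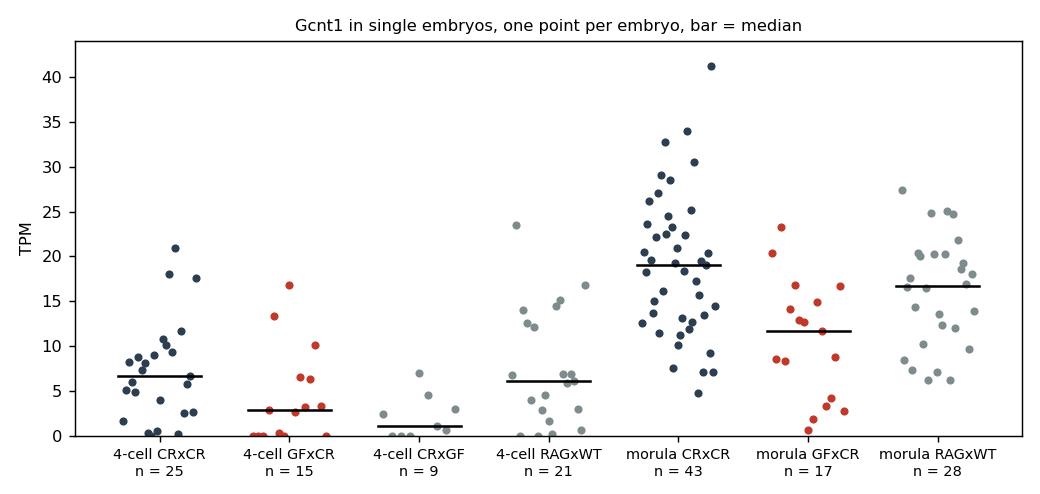
Gcnt1 in TPM (linear axis), one point per embryo with a bar for the median. The GFxCR medians of 2.85 TPM at the 4-cell stage and 11.6 TPM at the morula stage are below the CRxCR medians of 6.62 and 19.01 TPM, and points of the groups overlap.

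The other crosses gave Gcnt1 values that were not tested. RAGxWT embryos ran from 0 through 6.11 to 23.6 TPM at the 4-cell stage (n = 21) and from 6.22 through 16.7 to 27.4 TPM as morulae (n = 28). CRxGF 4-cell embryos ran from 0 through 1.03 to 6.98 TPM (n = 9), with 6 of 9 above 0.

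B3gnt5 in morulae ran from 0 through 0 to 2.51 TPM in GFxCR and from 0 through 1.47 to 8.89 TPM in CRxCR embryos, above 0 in 8 of 17 and 31 of 43. Its difference of -0.85 (interval -1.55 to -0.15) did not pass after adjustment (limma, adjusted p = 0.058). B3gnt3 differed by -0.67 (interval -1.38 to 0.05, adjusted p = 0.15) and C1galt1 by -0.40 (interval -0.99 to 0.18, adjusted p = 0.30). Of 53 other pathway genes tested in morulae, 14 passed after adjustment by limma, all lower, which at 26.4% is under the 30.2% of all genes. Among them were Galnt3 and Galnt7, which start chains (-1.05 and -1.12), and Slc26a2, the sulfate transporter (-1.60). With the number of genes as a covariate 0 of them passed.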

How the data were processed

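The authors mapped tissue reads with Kallisto to Ensembl transcripts (liver and embryos with RSEM, embryos to mm10) and deposited 1 table per comparison, the deposited values being CPM for ileum, skin and liver. The deposited embryo columns are named CPM, but the authors' values behave as TPM from RSEM. For liver the methods name TPM, whereas the values step like CPM. The Kallisto version and the genome build of the tissue tables are not given in the sources used here, and low values that were whole multiples of 1 read, within 0.02 of a read, made up 92.9 to 94.3% per library in liver, 60.2 to 73.4% in ileum and 10.3 to 26.8% in skin. A count test needs nearly all values to be whole and was not run.

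Values were read as log2(value + 0.5) and fitted with limma 3.58.1 (trend) in R 4.3.3, GFxCR or GFxGF against CRxCR within 1 table, two-sided, with Benjamini-Hochberg adjustment over all genes with a value of 1 or more in enough samples to fill the smaller group. Tables were normalised separately and 8 comparisons were made. Per table, up to 27 entries named by a date in place of a gene symbol were not used. Members and gene lists were chosen with earlier results of these data known. Besides the members, the text names up to 4 genes per list of smallest p in ileum (2 in other tables), genes past an adjusted p of 0.05, and the 8 most like the members' mean; Gm48128 was named after its value was seen. Samples of the same replicate number deviated together in ileum (r from 0.21 to 0.27 over 3 pairs) and in no other comparison throughout, so the number was read as pairing there. Nothing in the labels says that tissue samples came from separate litters, so p-values measure the spread between these samples. Alternatives were pseudocounts of 0.1 and 1, no filter, a filter at 5, scaling by the median of ratios, a Y-linked covariate, a replicate block, embryo set, and each sample left out. Covariates for B cell markers and genes per embryo, and the fit within an embryo set, were added after the data were seen. Intervals are 95% and cover these samples only. One gene of the pathway lists is not reported here by name.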

Additional observations from a re-analysis of the deposited data

Results flagged for a closer look

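B3gnt5 in the ileum of CRxCR mouse 5 stood at 23.2 CPM, far from the nearest of the 4 controls at 2.86 CPM. In 4-cell CRxGF embryo 8, B3gnt7 stood at 8.27 TPM with the nearest of 9 embryos at 3.23 TPM, and Fut2 in the same embryo at 13.1 TPM with the nearest at 6.15 TPM. Of 48 groups of values examined these 3 held a value so far from the rest, and chance gives about 1 in 20.

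Galnt4 was below the control mean in every GFxCR mouse in ileum (mean log2 difference -0.60) and above it in every GFxCR mouse in F1 skin (0.17). The difference between the tissues was not tested, and the ileum values chose the gene.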

How the results depend on the processing

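In ileum 0 genes passed an adjusted p of 0.05 in each alternative except the replicate block, which gave 1. Under the alternatives B3gnt7, B3galt5, Fut2 and Gcnt1 kept their sign in 15 of 15 fits and B3gnt5 in 12 of 15. These fits reuse the ileum values that chose the members, so a kept sign supports nothing about them. The count of lower pathway genes in ileum (9) ran from 5 to 12 with 1 mouse left out and from 7 to 11 otherwise. With 1 mouse left out, genes passing in liver (4) ran from 4 to 11, in F1 skin of GFxCR mice (9) from 2 to 10 and of GFxGF mice (15) from 8 to 16, and in F2 skin of the GFxCR line (0) from 0 to 1 and of the GFxGF line (7) from 4 to 9. The replicate block fit left out samples whose number does not occur in both groups, so in morulae it used 17 embryos per group. Its counts and those of the main fit therefore rest on different samples. It gave 212 genes in liver, 151 in F1 skin of GFxCR mice and 147 in morulae, and it says nothing of pairing there. In ileum too the samples share only a number by their labels. Without the filter 5 genes passed in F1 skin of GFxCR mice and 7 in that of GFxGF mice. With the Y-linked covariate 7 passed in F1 skin of GFxGF mice and 4 in F2 skin of the GFxGF line. In morulae the 3287 genes became 190 with the number of genes as a covariate, 1566 with embryo set as a term and 1271 within the first set. The 14 pathway genes of morulae became 9 without a filter, 7 with a filter at 5, 9 after scaling by the median of ratios, 0 with the replicate block, 0 with the number of genes, 5 with the set as a term and 4 within the first set. Gcnt1 in morulae (-1.03) passed in 8 of 10 alternatives, and not with the replicate block (-1.28, adjusted p = 0.054) or the number of genes (-0.67, adjusted p = 0.118). B3gnt3 in morulae passed with the Y-linked covariate (-0.94, adjusted p = 0.047). The cause of these shifts was not tested. No fit with a Y-linked covariate could be made in liver, where those genes were listed at 0, and no embryo had so few genes as to be left out.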

Other observations

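The tables of sebaceous glands cut from skin sections by laser microdissection entered no comparison here. The F0 samples are from conventional (CR) and germ-free (GF) mice themselves. By the study's methods the F1 samples are from CRxCR and GFxGF mice, so F1 GF means offspring of 2 germ-free parents, not germ-free mice. C1galt1 stood at 125 to 139 CPM in F0 CR and 112 to 138 CPM in F0 GF samples, 3 each. In F1 it stood at 194 and 199.98 CPM in the CR samples and at 129 to 147 CPM in 3 GF samples. These F1 values of C1galt1 did not overlap. B3gnt5, at far lower levels, was likewise higher in both F1 CR samples than in all 3 F1 GF samples. In groups this small, a lack of overlap singles out neither gene. No test was made, and the share of all genes without overlap was not worked out. Gcnt1 stood at 4.09 to 6.07 CPM and 5.64 to 7.23 CPM in F0 CR and GF samples, and at 4.30 and 7.997 CPM and 3.001 to 6.49 CPM in F1. B3gnt7, at 2.46 ± 0.47 CPM (SD, n = 3) in F0 CR gland samples, stood at 0.662 and 0.706 CPM in the 2 F1 CR gland samples and was under 1 CPM in every skin sample.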
